A study of Pimephales promelas with 27 samples.

Results

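These 60 array probes had higher mean signal in newly hatched fathead minnow after embryonic exposure to fresh oil sands process water. After exposure to pure naphthenic acids they differed little from the mean of pure salt arrays that themselves lay far apart. The probes were chosen by their measured values in the fresh and pure groups, so those values describe how the members were picked and carry no test here. A probe's value was the log2 of its processed signal after scaling to the array's own 75th percentile, so that 0 is the level below which 75% of its probes lie. Of 15208 probes on the array, 10341 were well above background, by the scanner software's flag, on all 17 fresh and pure arrays that the rule used. Of these, 5652 differed from the pure salt control by between -0.3 and 0.3 at both pure doses, and they are called eligible probes below. The members are the 60 eligible probes with the highest value of the smaller of their differences from fresh salt at 5 and 10 ppm. The rule left out fresh 10 ppm replicate 1, an array that stands apart, so the fresh 10 ppm mean in the rule rests on 2 arrays.

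Fathead minnow (Pimephales promelas) is a North American freshwater fish that serves as a test species in ecotoxicology, and RNA of newly hatched fish was labelled with Cy3 and hybridised to 27 single-colour Agilent arrays. Embryos were exposed until hatch to fresh process water at 5 or 10 ppm with a fresh salt control, to pure naphthenic acids at 1.25 or 2.5 ppm with a pure salt control, or to aged process water at 10 or 20 ppm with an aged salt control. Each of the 9 groups had 3 arrays. The labels give no strain, age in days or number of fish per sample, say neither what the salt controls contained nor which compounds the ppm of the waters refers to, and do not state that replicates are separate tanks. P-values therefore measure only the spread between these samples, part of which could be technical.

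Oil sands process water is the water left after bitumen is washed from sand, and it carries salts, metals, polycyclic aromatic compounds and many organic acids besides the naphthenic acids. Naphthenic acids are carboxylic acids of petroleum with rings and side chains, and they are regarded as a main source of the toxicity of process water to fish embryos. Ageing in ponds lets microbes degrade part of the acids. Setting fresh water beside pure acids asks whether the water does more than its acids, within doses that differ between the sources.

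The files name probes by contig or sequence number and pair none with a gene, and 0 of the 15208 probes matched the 64593 genes of the reference table by name. Members are therefore given by probe name without a role, and the gene lists and tissue markers could not be read. Neither the labelled whole-fish tissue nor the share of any cell type could be checked. In whole-fish RNA, fewer cells of a type and less RNA per cell cannot be told apart. By name, 55 members carry contig names and 5 carry sequence numbers, and all 60 have distinct cluster numbers. Another 15 probes share a cluster number with 13 of the members. Of these, 13 passed the background filter, and their median differences from fresh salt were 0.01 at 5 ppm and 0.14 at 10 ppm.

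Before scaling, the arrays had 75th percentiles from 582 to 2044 in processed signal, between 10930 and 14981 probes per array were well above background, and no probe spot was saturated. Some arrays stood apart, in that the ranking of probes in the scanner file and in the authors' value table had a Spearman correlation under 0.99. They were fresh 10 ppm replicate 1, aged 20 ppm replicates 4 and 6, and aged salt replicates 7 and 9. Dim probes were raised on these 5 arrays: the dimmest 10% lay 4.37, 1.03, 2.82, 1.89 and 4.66 log2 units above the mean of the other 22 arrays, in the order named. Aged results are given with all arrays and again without the 5, because most members are dim.

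In fresh water the members lay between 0.71 and 1.61 above fresh salt at 5 ppm, with a median of 0.85 on the log2 scale. At 10 ppm they lay between 0.71 and 1.42 above it, with a median of 0.87. The medians of eligible probes were 0.02 and 0.07. The rule sets the lower end of these ranges, and 9 of the 60 members had a smaller difference of at least 1, which is a 2-fold signal. The last members inside the limit were UF_Ppr_AF_114064 at 0.708 and UF_Ppr_AF_112169 at 0.7073, and the first probes outside it were UF_Ppr_AF_117426 at 0.7069 and UF_Ppr_AF_113565 at 0.706. No gap separates members from other probes at the limit.

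The members had no common direction between the fresh doses. At 10 ppm 33 of 60 members lay higher than at 5 ppm, and the median step was 0.03. Of the eligible probes 63.2% lay higher at 10 ppm than at 5 ppm, with a median step of 0.05. In pure acids, where the rule bounds the difference, the members had medians of 0.11 at 1.25 ppm and 0.02 at 2.5 ppm.

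The members are dim probes. Their median level over the 17 arrays was -2.88, against -0.36 for eligible probes and -0.90 for all probes that passed the filter. Of the 60 members 54 were dimmer than that last median, as were 41.3% of eligible probes. Levels of different probes cannot be read as amounts of RNA, since each probe binds with its own strength. Only 3 members had a level above 0, namely UF_Ppr_AF_103802 at 5.08, UF_Ppr_AF_105836 at 1.16 and UF_Ppr_AF_104980 at 0.35. On all 27 arrays 50 of the 60 members were well above background, as were 5569 of the 5652 eligible probes. In 7 members a spot was marked as non-uniform on at least 1 array. The share of eligible probes so marked is not given, so nothing is read from that count.

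The top member, UF_Ppr_AF_115811, had -1.98, -2.28 and -2.23 on the fresh 5 ppm arrays and -2.23 and -1.98 on fresh 10 ppm replicates 2 and 3, against -2.91, -3.33 and -4.26 on the fresh salt arrays. All 5 exposed arrays lay above all 3 salt arrays, and salt replicate 9 was the lowest. The differences were 1.34 at 5 ppm and 1.39 at 10 ppm, or 2.53-fold and 2.63-fold. In the pure groups the same probe had -2.60, -1.92 and -2.95 at 1.25 ppm and -1.98, -3.34 and -2.82 at 2.5 ppm, against -2.01, -2.23 and -4.09 in pure salt. Pure salt replicate 9 was again lowest, and the other pure salt arrays lay at the level of the fresh exposed arrays.

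UF_Ppr_AF_113589 had the largest difference of any member at 5 ppm, 1.61, and 1.27 at 10 ppm. Its values were -1.999, -2.07 and -2.82 at fresh 5 ppm and -2.62 and -2.67 at fresh 10 ppm, against -3.19, -3.81 and -4.73 in fresh salt. Exposed and salt arrays did not overlap. UF_Ppr_AF_101426 had the largest difference at 10 ppm, 1.42, with -1.70 and -1.18 at that dose and -1.76, -1.71 and -1.53 at 5 ppm, against -2.03, -3.38 and -3.18 in fresh salt. Here salt replicates 8 and 9 were both low, and replicate 7 lay close to the exposed arrays.

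Fresh salt replicate 9 decided more of UF_Ppr_AM_119600, the fourth member. It had -1.91, -2.23 and -3.27 at fresh 5 ppm and -3.26 and -2.41 at fresh 10 ppm, against -3.55, -3.15 and -5.34 in fresh salt. Exposed arrays overlapped salt replicate 8, and without salt replicate 9 its difference over both doses was 0.74. UF_Ppr_AF_118557, a very dim probe, had -4.10, -4.33 and -3.48 at 5 ppm and -3.96 and -3.62 at 10 ppm, against -4.28, -5.55 and -5.62 in fresh salt. Salt replicate 7 lay among the exposed arrays.

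The fresh difference of the bright member UF_Ppr_AF_103802 did not depend on fresh salt replicate 9. Its values were 5.35, 5.83 and 5.25 at fresh 5 ppm and 5.59 and 6.13 at fresh 10 ppm, against 4.69, 4.16 and 4.46 in fresh salt, a difference of 2.05-fold and 2.68-fold. The groups did not overlap, and without salt replicate 9 the difference over both doses was 1.20, the largest of any member. In pure salt it ranged from 4.63, on replicate 9, to 5.55, so the fresh salt arrays overlapped the low end of the pure controls. UF_Ppr_AF_105836 had 1.89, 1.32 and 1.87 at 5 ppm and 1.33 and 1.88 at 10 ppm, against 1.36, 0.82 and -0.34 in fresh salt. Salt replicate 7 lay above the lowest exposed array of each dose.

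The 3 remaining members of the top 10 followed the order of the salt arrays seen in the first. UF_Ppr_AF_118923 had -1.67, -2.02 and -1.39 at 5 ppm and -2.13 and -1.59 at 10 ppm, against -1.96, -2.85 and -3.91 in fresh salt. UF_Ppr_AF_115057 had -0.86, -1.15 and -0.73 at 5 ppm and -1.01 and -0.96 at 10 ppm, against -1.42, -1.96 and -2.61. UF_Ppr_AF_109384 had -2.17, -2.72 and -2.46 at 5 ppm and -2.90 and -2.29 at 10 ppm, against -2.98, -3.34 and -4.50. In each, salt replicate 7 was the highest of the controls and replicate 9 the lowest, and the first of the 3 overlapped the exposed arrays.

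**Figure D1:**
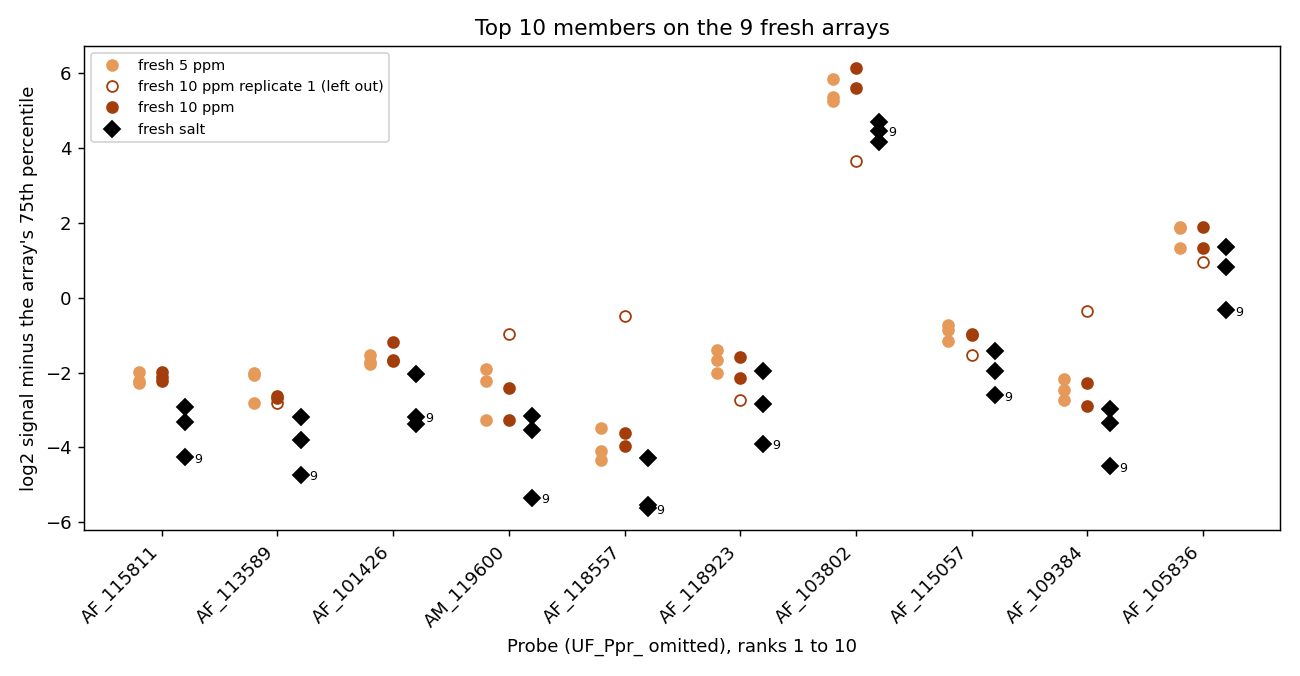
Values of the 10 top members on the 9 fresh arrays, as log2 signal minus the array's 75th percentile; circles are exposed arrays (5 ppm, then 10 ppm), diamonds are fresh salt arrays, the open circle is fresh 10 ppm replicate 1, and 9 marks salt replicate 9. UF_Ppr_AF_115811 had its 5 exposed arrays between -2.28 and -1.98, above all 3 salt arrays, of which replicate 9 lay at -4.26.

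Over all members, all 5 exposed arrays lay above all 3 fresh salt arrays in 27 of 60, and in 7.29% of eligible probes. The rule used these arrays, so nothing is read from that count. The 3 fresh salt arrays differed widely in the members. With each probe set to its own mean over the 17 arrays, the median of the members was 0.09 on fresh salt replicate 7, -0.41 on replicate 8 and -1.15 on replicate 9. The medians of eligible probes on the same arrays were 0.03, -0.01 and -0.07. The exposed fresh arrays lay between 0.15 and 0.60.

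The size of the fresh difference therefore depended on the salt array. The mean of the 5 exposed arrays lay above salt replicate 7 by a median of 0.30, above replicate 8 by 0.83 and above replicate 9 by 1.56. All 5 exposed arrays were above replicate 7 in 28 members, above replicate 8 in 58 and above replicate 9 in 60. Among eligible probes the shares were 17.04%, 24.89% and 37.77%, in the same order. These arrays chose the members, so nothing is read from these 3 counts. Fresh salt replicate 9 was the lowest of the 3 controls in 54 of 60 members, against 46.6% of eligible probes, and replicate 7 was the lowest in 0. Without replicate 9 the members lay above fresh salt by a median of 0.56 over both doses, with all 60 above 0 and the smallest at 0.27. With it that median was 0.85. The choice of members favoured low salt values, so the direction without replicate 9 is not separate support.

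Pure salt replicate 9 was also low. The medians of the members, each relative to its own mean, were 0.48 on pure salt replicate 7, 0.15 on replicate 8 and -0.95 on replicate 9, while the 6 arrays of exposed fish lay between -0.41 and 0.28. It was the lowest pure control in 59 of 60 members, against 47.1% of eligible probes. Both salt arrays numbered 9 were the lowest of their group in 54 members, against 23.6% of eligible probes. The rule used these arrays, so nothing is read from these counts. The salt arrays numbered 9 lay on different slides, fresh salt replicate 9 on slide 2 and pure salt replicate 9 on slide 3. Neither was among the 5 arrays that stand apart. What distinguishes them was not tested. Over the 10341 probes that passed the filter, each salt array's deviations from its group mean were correlated between the fresh and pure sources. The Pearson correlation was 0.41 for the arrays numbered 7, 0.01 for those numbered 8 and 0.26 for those numbered 9. The arrays numbered 7 shared slide 2, and those numbered 8 shared slide 3. Between fresh salt replicate 7 and pure salt replicate 9 the correlation was -0.41, and between fresh salt replicate 9 and pure salt replicate 7 it was -0.25. Deviations within a group cancel by construction, so these correlations are tied to one another.

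The small pure differences of the members rested on the balance of controls that lay far apart. The mean of the 6 pure exposed arrays lay 0.49 below pure salt replicate 7 and 0.19 below replicate 8 at the median member, and 0.85 above replicate 9. Without pure salt replicate 9 the members had medians of -0.28 at 1.25 ppm and -0.34 at 2.5 ppm, against -0.03 and -0.05 for eligible probes. Without pure salt replicate 7 the medians were instead 0.39 and 0.29, and without replicate 8 they were 0.24 and 0.11. With replicate 9 left out, 19 of the 60 members would remain within -0.3 and 0.3 at both doses, against 81.2% of eligible probes. At 2.5 ppm 36 members would lie below -0.3, and at 1.25 ppm 28 would.

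**Figure D2:**
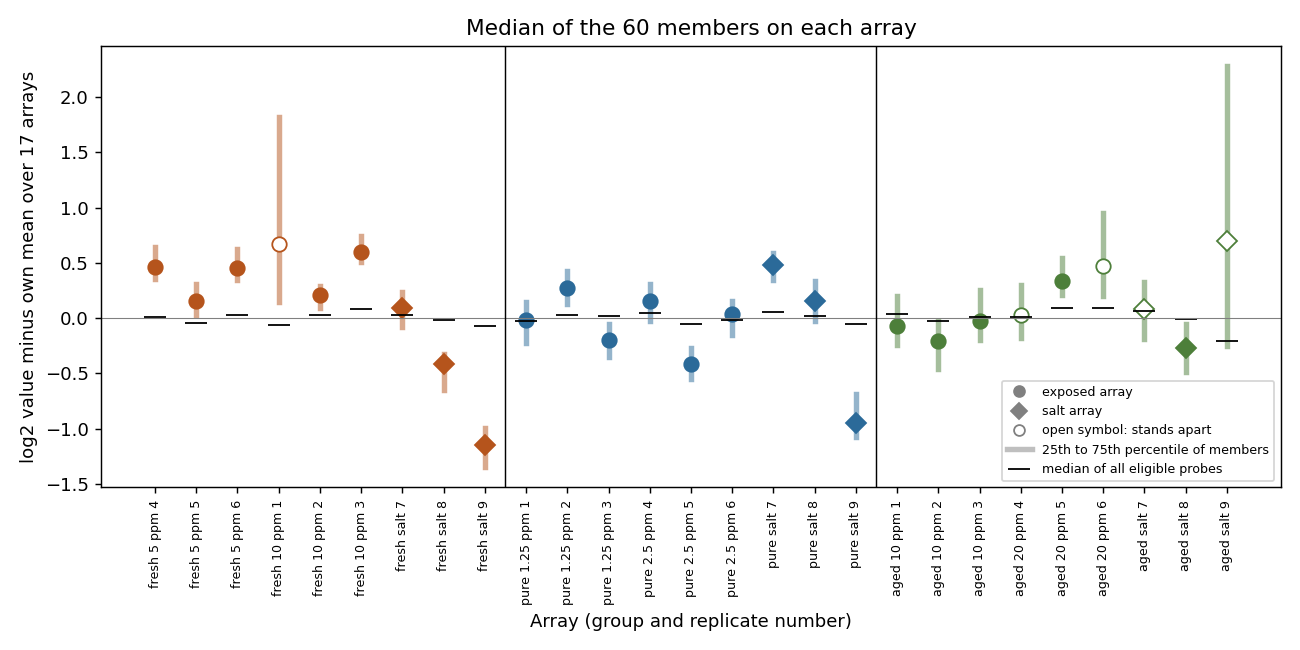
Median of the 60 members on each of the 27 arrays, as log2 value minus the member's own mean over the 17 fresh and pure arrays; circles are exposed arrays, diamonds salt arrays, open symbols the arrays that stand apart, bars the 25th to 75th percentile of members and dashes the median of eligible probes. Fresh salt replicate 9 at -1.15 and pure salt replicate 9 at -0.95 are the lowest of all arrays.

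**Figure D3:**
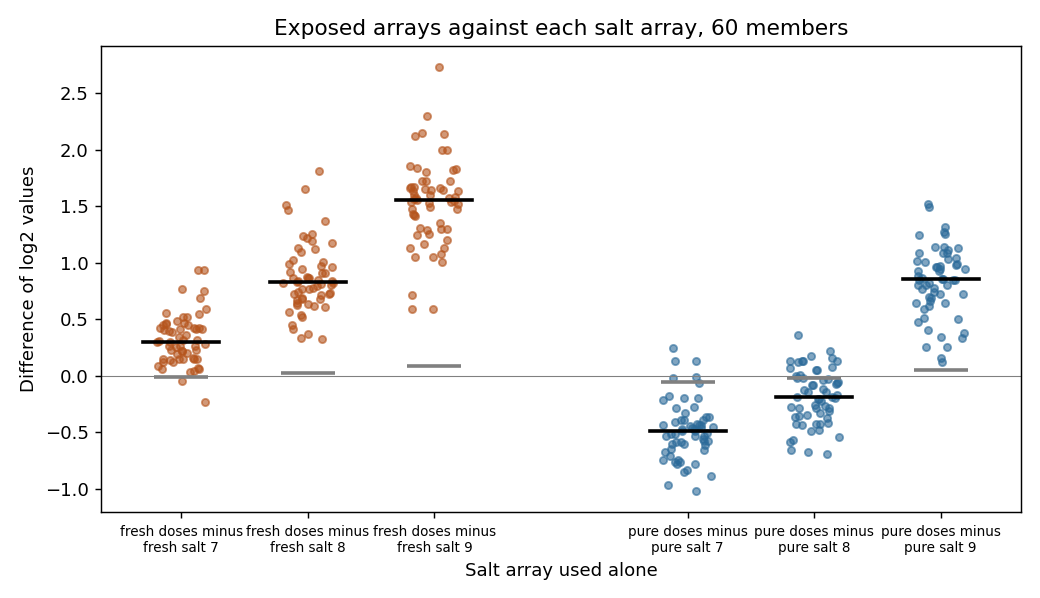
Difference of each member's mean over the 5 fresh (left) or 6 pure (right) exposed arrays from 1 salt array at a time; points are members, black bars their median and grey bars the median of eligible probes. The medians are 0.30, 0.83 and 1.56 against fresh salt replicates 7, 8 and 9, and -0.49, -0.19 and 0.85 against the pure ones.

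Within the groups, the members spread most in the controls. The median SD of a member was 0.24 at fresh 5 ppm and 0.29 at fresh 10 ppm (2 arrays), against 0.68 in fresh salt. It was 0.32 at pure 1.25 ppm and 0.35 at pure 2.5 ppm, against 0.72 in pure salt. For eligible probes the median SD was 0.14 and 0.13 in the fresh doses, against 0.18 in fresh salt, and 0.16 and 0.17 in the pure doses, against 0.16 in pure salt. The rule used these fresh and pure arrays, so nothing is read from that contrast. In the aged groups, which the rule did not use, the median SD of a member was 0.23 at 10 ppm and 0.37 at 20 ppm, against 0.70 in aged salt. For eligible probes it was 0.17 and 0.20, against 0.33 in aged salt. Aged salt replicates 7 and 9 and aged 20 ppm replicates 4 and 6 are among the arrays that stand apart, on which dim probes were raised. The members are dimmer than eligible probes, with median levels of -2.88 and -0.36. The SDs were not matched for level, so no trait of the members is read from them.

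A few members did not follow the arrays numbered 9. Pure salt replicate 9 lay within 0.5 of the mean of replicates 7 and 8 in 4 members. UF_Ppr_AF_104980 had 0.57, 0.85 and 0.31 at fresh 5 ppm and 0.61 and 0.94 at fresh 10 ppm, against 0.10, -0.47 and -0.06 in fresh salt, and its pure salt arrays had 0.24, 0.45 and 0.24. Its exposed fresh arrays did not overlap the controls. UF_Ppr_AF_112206 had -0.08, 0.70 and -0.46 at fresh 5 ppm and 0.09 and 0.01 at fresh 10 ppm, against -0.37, -1.46 and -0.54 in fresh salt. In this probe salt replicate 8 was the low one, and 1 exposed array overlapped replicate 7. UF_Ppr_AF_114064 had -3.43, -3.58 and -3.27 at fresh 5 ppm and -3.72 and -3.26 at fresh 10 ppm, against -4.14, -4.42 and -4.04 in fresh salt. The groups did not overlap, and the SD was 0.20 in both salt groups. The other was UF_Ppr_AM_119600, whose fresh salt replicate 9 was far below the others. These 4 were singled out after their values were seen.

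Some slides held exposed arrays beside salt arrays of the same source. Slide 3 held fresh 5 ppm replicate 4 and fresh salt replicate 8, and on it all 60 members were higher in the exposed array, by a median of 0.91 (0.02 for eligible probes). Slide 2 held fresh 10 ppm replicate 3 and fresh salt replicates 7 and 9, and all 60 were again higher, by a median of 1.11 (0.10 for eligible probes). In the pure groups the values within slides went opposite ways: pure 1.25 ppm replicate 3 lay 0.67 below pure salt replicate 7 on slide 2 at the median member, and pure 2.5 ppm replicate 4 lay 0.52 above pure salt replicates 8 and 9 on slide 3. The rule used all these arrays, so the values within slides are no check on the fresh rise.

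**Figure D4:**
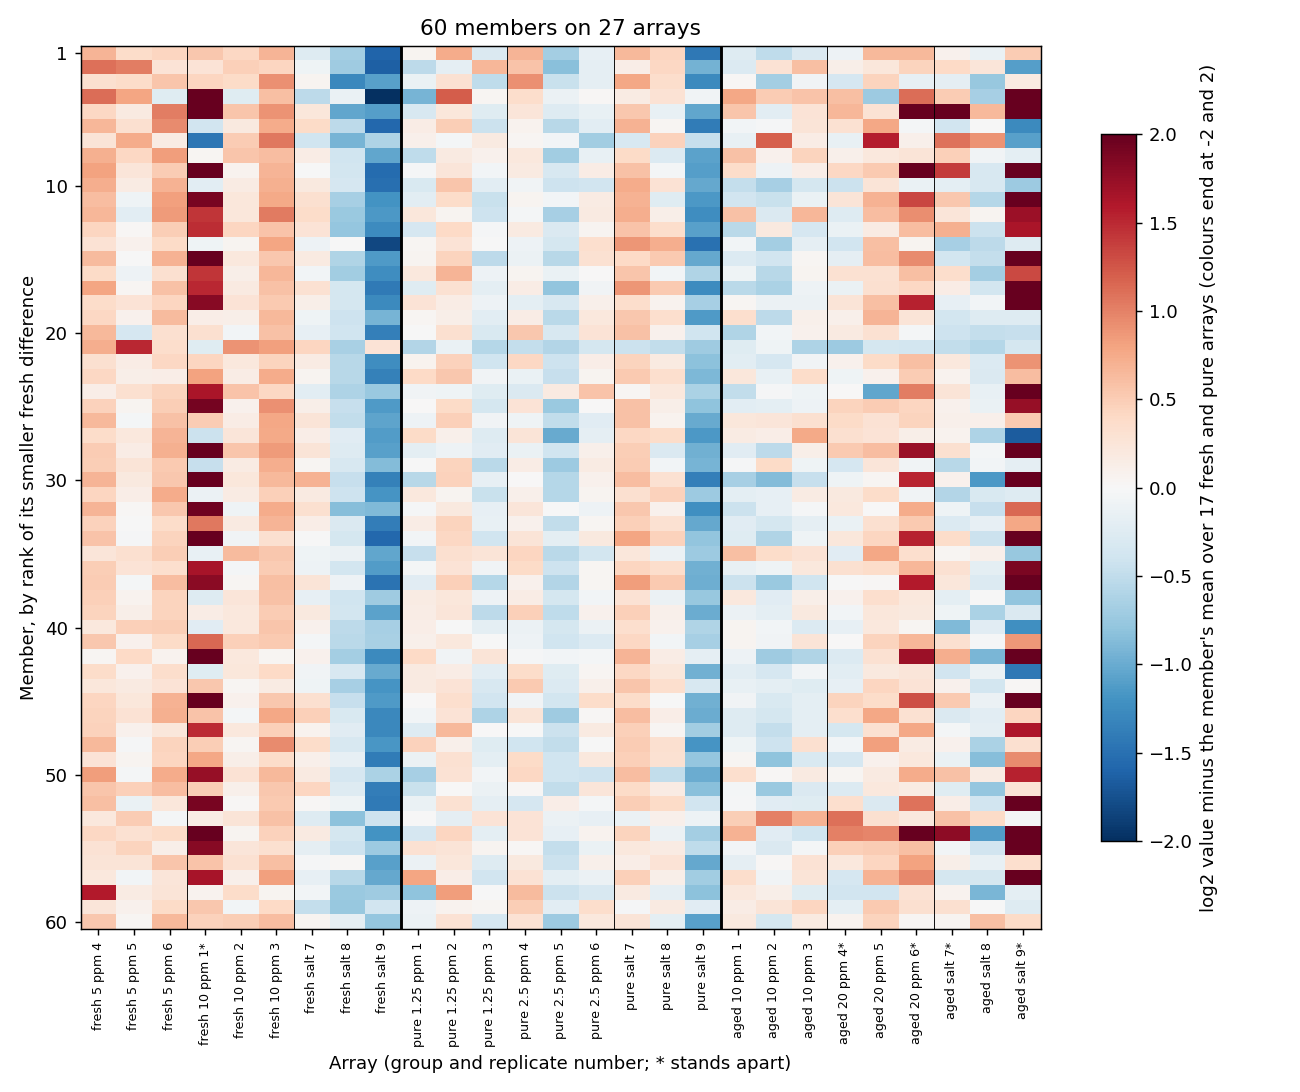
The 60 members (down, by rank) on the 27 arrays (across, exposed groups before the salt group of each source), coloured by log2 value minus the member's mean over 17 arrays. Both salt columns numbered 9 of the fresh and pure sources are blue (low) in nearly all members, while aged salt replicate 9, with an asterisk, holds deep red (high) and blue members.

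Fresh 10 ppm replicate 1 was not used to choose the members. On it they lay above the fresh salt mean by a median of 1.32, from -0.80 to 4.83, and 56 of 60 lay above 0. The median of eligible probes was -0.03, and 2727 of 5652 lay above 0. Replicate 1 was above all 3 fresh salt arrays in 46 members, against 36.5% of eligible probes. This array raises dim probes, and the 30 dimmer members had a median of 2.19 against 0.79 in the 30 brighter ones. The fresh salt values in this difference were used by the rule, and no test was made. Under quantile normalization the median was -0.22, and with the authors' values it was -0.04, so the direction turned with the processing. The bright member UF_Ppr_AF_103802 had 3.64 there, below its 3 salt arrays. UF_Ppr_AF_115811 had -2.12, in the range of the other fresh exposed arrays.

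Aged water, whose arrays the rule did not use, gave no change in any member that passed the test. The spread in the test was pooled over all 27 arrays, among them the fresh and pure arrays that chose the members. In fresh and pure salt the members had median SDs of 0.68 and 0.72, against 0.18 and 0.16 for eligible probes. The SEs of the members thus depend in part on the choice. Nothing is read from counts of members below the share of all probes. By limma, with Benjamini-Hochberg adjustment over 14738 probes, 0 of 60 members were called at aged 10 ppm, where 0.129% of all tested probes were called. At an unadjusted p below 0.05 there were 3 members, 2 of them higher, against 24.4% of all probes. The lowest adjusted p of a member was 0.202. The members had a median difference of -0.30, from -2.02 to 1.08, and 23 lay above 0. The median of all tested probes was -0.31, with 34.1% above 0. Eligible probes, which passed the same background filter as the members, had a median of 0.05, with 56.4% above 0. The members are dimmer than eligible probes, and the sets were not matched for level. The direction of the members turned with the processing. Their median was 0.36 with normexp, 0.54 under quantile normalization and 0.60 with the authors' values, where all tested probes had 0.14, 0.08 and 0.04. Normexp changed the aged arrays unequally. Its ratio to the background-subtracted signal at the median probe was 9.49 on aged 10 ppm replicate 3 and 0.79 on replicate 1. On aged salt replicates 7 and 9 the ratio was 2.60 and 0.95.

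At aged 20 ppm limma called 0 members as well, against 0.278% of all tested probes. At an unadjusted p below 0.05 there were 3, all higher, against 7.67% of all probes. The median of the members was 0.08, with 33 above 0, and that of all tested probes was -0.15, with 38.4% above 0. Eligible probes had a median of 0.07, with 60.1% above 0. Under quantile normalization the median of the members was 0.44, and with the authors' values it was 0.57. In the mean of both aged doses 0 members were called, against 0.434%, and 3 had an unadjusted p below 0.05, against 16.9%. Between 10 and 20 ppm 0 members were called and none had an unadjusted p below 0.05, against 0.0% and 2.38% of all probes. The median step was 0.37 over the members, 51 of them higher at 20 ppm, while 72.1% of all tested probes were higher, by a median of 0.18.

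The highest mean of both aged doses was that of UF_Ppr_AF_105023. It had -1.72, -1.75 and -1.13 at aged 10 ppm and -1.56, -1.60 and -1.76 at aged 20 ppm, against -1.81, -2.49 and -3.54 in aged salt. The exposed arrays all lay above the controls. The difference was 1.08 ± 0.46 at 10 ppm (SE; limma adjusted p = 0.202) and 0.97 ± 0.46 at 20 ppm (SE; limma adjusted p = 0.643), so neither passed. Without the 5 arrays these were 0.96 and 0.89.

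UF_Ppr_AF_100698 had -2.74, -2.85 and -3.07 at aged 10 ppm and -2.96, -2.58 and -2.75 at aged 20 ppm, against -3.67, -3.02 and -4.02 in aged salt. Only 1 exposed array, 10 ppm replicate 3, overlapped the controls. In the mean of both doses it lay 0.75 ± 0.23 above aged salt (SE; limma adjusted p = 0.201), and 0.29 without the 5 arrays. UF_Ppr_AF_118923, which is also among the top 10 in fresh water, lay 0.61 ± 0.49 above aged salt at 10 ppm and 0.90 ± 0.49 above it at 20 ppm (SE; limma adjusted p = 0.374 and 0.705). Without the 5 arrays these differences were 0.07 and 0.78. UF_Ppr_AF_112737 lay 0.44 ± 0.34 and 0.72 ± 0.34 above it (SE; limma adjusted p = 0.358 and 0.649). Without the 5 arrays its difference turned to -0.08 at 10 ppm and was 0.31 at 20 ppm.

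The members with the lowest aged values were dim probes whose aged salt arrays varied widely. UF_Ppr_AF_118557 had -3.96, -4.72 and -4.25 at aged 10 ppm and -3.85, -4.23 and -1.95 at aged 20 ppm, against -2.20, -3.86 and -0.79 in aged salt. Its difference at 10 ppm was -2.02 ± 0.79 (SE; limma adjusted p = 0.202). Aged salt replicate 8, the control that did not stand apart, lay at the level of the exposed arrays, and without the 5 arrays the difference was -0.45. UF_Ppr_AF_118278 had -3.82, -4.76 and -4.92 at aged 10 ppm and -3.51, -3.55 and -1.23 at aged 20 ppm, against -2.73, -5.64 and 0.39 in aged salt. Its difference at 10 ppm was -1.84 ± 1.104 (SE; limma adjusted p = 0.259) and turned to 1.14 without the 5 arrays. UF_Ppr_AF_105647 turned likewise, with -1.60 ± 0.77 (SE; limma adjusted p = 0.205) and 0.44, and UF_Ppr_AF_103549 moved to -0.06, against -1.15 ± 0.61 (SE; limma adjusted p = 0.220) with all arrays.

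Across the 60 members, which share the same arrays, the aged 10 ppm difference rose with the level of the probe (Spearman 0.52), and without the 5 arrays it did not (-0.19). The 30 dimmer members had a median of -0.66 at aged 10 ppm and the 30 brighter ones 0.01 with all arrays. Without the 5 arrays these medians were 0.26 and 0.14. With all arrays, the aged salt mean includes replicates 7 and 9, on which the dimmest 10% of probes lay 1.89 and 4.66 above the other 22 arrays.

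Without the 5 arrays the members had a median of 0.21 at aged 10 ppm, with 43 above 0. At aged 20 ppm their median was 0.64, with 54 above 0. All tested probes had medians of 0.02 and 0.14, with 53.3% and 64.2% above 0. Leaving out the 5 arrays left 1 aged 20 ppm array and 1 aged salt array, which all members share. These are assumed to vary like the other groups. By limma 0 members were called at 10 ppm, against 0.149% of all probes, and 1 had an unadjusted p below 0.05, against 5.21%. At 20 ppm 0 were called, against 0.0611%, and 4 had an unadjusted p below 0.05, against 6.97%. In the mean of both doses 0 were called, against 0.142%, and 1 had an unadjusted p below 0.05, against 5.77%.

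**Figure D5:**
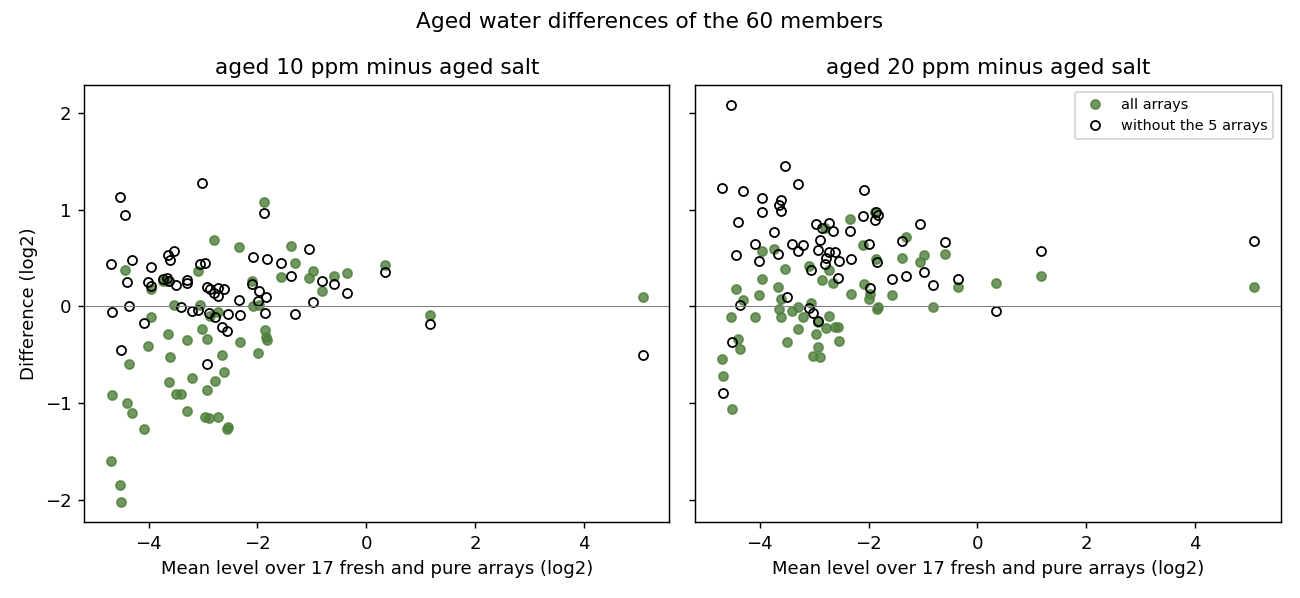
Difference of each member from aged salt at aged 10 ppm (left) and aged 20 ppm (right), on the log2 scale, against its mean level over the 17 fresh and pure arrays; filled points use all arrays and open circles leave out the 5 arrays that stand apart. At 10 ppm the dim members lie as low as -2.02 with all arrays and no lower than -0.59 without the 5.

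Leaving out aged salt replicate 8, the control that did not stand apart, gave 11 called members at aged 10 ppm by limma, 1 higher and 10 lower, and 3 in the mean of both doses, 1 higher and 2 lower. The controls were then 2 arrays that stand apart, and 30.6% and 16.1% of all tested probes were called. Each slide that held an aged exposed array and an aged salt array had at least 1 of them among the arrays that stand apart. On slide 2 aged 10 ppm replicate 3 lay 0.01 below aged salt replicate 7 at the median member, and on slide 4 aged 10 ppm replicate 1 lay 0.79 below aged salt replicate 9. On slide 3 aged 20 ppm replicate 4 lay 0.32 above aged salt replicate 8, and on slide 4 aged 20 ppm replicate 5 lay 0.44 below aged salt replicate 9.

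Membership itself depended on single salt arrays and on the processing. When the rule was applied again without pure salt replicate 9, 10 of the 60 members were chosen again. Without pure salt replicate 7 the number was 17, without fresh salt replicate 9 it was 26 and without pure salt replicate 8 it was 37. With both salt arrays numbered 9 left out 7 of the 60 were chosen again. Leaving out any single exposed array kept between 38 and 54 members, the fewest without fresh 10 ppm replicate 3. Quantile normalization and the authors' values each kept 40, subtraction of the local background with 50 added kept 27, and normexp kept 0. A pure window of 0.2 kept 34 and a window of 0.5 kept 26.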

How the data were processed

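RNA of 27 samples was measured on single-colour arrays. The deposited scanner files hold a processed signal, median signal and local background per spot as linear intensity, per the file headers, and flags for spots above background. The value table holds the authors' log2 values, which set against the scanner files have a floor, nearly equal quantiles and medians between 7.36 and 7.43. What the authors' software and background correction were is, in the sources used here, not given.

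Control spots (536 of 15744) were left out. The value used here is the log2 processed signal minus the array's 75th percentile. Probes well above background on at least 3 arrays (14738) entered 1 fit with all 27 arrays and a term for each of the 9 groups (limma 3.58.1 under R 4.3.3), with Benjamini-Hochberg adjustment over all of them and a threshold of 0.05. The fit was tested on simulated data with the same spread on every array and no arrays that stand apart. That test does not cover the unequal spread of the groups or the raised dim probes in these data. Fresh and pure differences chose the members and were not tested. Members given by name are the 10 with the highest smaller fresh difference, the 4 highest and 4 lowest in the mean of both aged doses, any called in an aged comparison, and those next to the limit. The members and lists were chosen with earlier results of these data known. Lists of genes and tissue markers were not applied, since no probe could be paired with a gene, and no probe sequence was used.

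Alternatives were normexp background correction on the median signal, quantile normalization, the authors' values, other filters on dim probes, the aged groups alone, slide as a fixed or random block, a trended robust spread, other windows for the rule and each array left out. Those chosen after seeing the data were subtraction of the local background with 50 added (negative values set to 0), quantile normalization without the 5 arrays, leaving out both salt arrays numbered 9, and other scalings of the fresh and pure differences. Precision is limited by the 3 arrays per group.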

Additional observations from a re-analysis of the deposited data

Results flagged for a closer look

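In 8 of the members given by name all exposed arrays lay above the salt mean at fresh 10 ppm (replicates 2 and 3) and all 3 lay below it at aged 10 ppm. The count covers only members given by name, without the share of all probes, and nothing is read from it. The fresh rise chose these members, and the difference between the sources was not tested. UF_Ppr_AF_118557, UF_Ppr_AF_105647, UF_Ppr_AF_118278 and UF_Ppr_AF_103549 were named for having the 4 lowest aged means of the members. Their low values at aged 10 ppm thus follow in part from that choice. Of all 60 members 23 lay above aged salt at 10 ppm, against 34.1% of all tested probes, and the medians were -0.30 and -0.31. Of the eligible probes 56.4% lay above it, with a median of 0.05. At aged 10 ppm UF_Ppr_AF_118557 differed from aged salt by -2.02, UF_Ppr_AF_118278 by -1.84, UF_Ppr_AF_105647 by -1.60, UF_Ppr_AF_103549 by -1.15, UF_Ppr_AF_109384 by -1.15, UF_Ppr_AF_115811 by -0.50, UF_Ppr_AF_112169 by -0.34 and UF_Ppr_AM_119600 by -0.23. At fresh 10 ppm the same 8 lay between 0.72 and 1.39 above fresh salt. Without the 5 arrays that stand apart, the aged 10 ppm differences were 1.28 for UF_Ppr_AM_119600, 1.14 for UF_Ppr_AF_118278, 0.45 for UF_Ppr_AF_109384 and 0.44 for UF_Ppr_AF_105647. They were then -0.06 for UF_Ppr_AF_103549, -0.21 for UF_Ppr_AF_115811, -0.45 for UF_Ppr_AF_118557 and -0.59 for UF_Ppr_AF_112169.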

How the results depend on the processing

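No paired analysis was possible because replicate numbers run on from group to group within a source and the groups compared share none. Counts of called members at both aged doses, in their mean and in their step were 0 under each alternative except leaving out single aged arrays, where they ranged from 0 to 11 at aged 10 ppm and from 0 to 3 in the mean of both doses, were 0 at 20 ppm and 0 in the step. The number of members with an unadjusted limma p below 0.05 moved. Under quantile normalization it was 14 at aged 10 ppm, 10 at 20 ppm and 18 in the mean of both doses. With the authors' values it was 8, 11 and 9, and with normexp it was 0 in each. The share of all probes is not given for these settings, so nothing is read from these counts. Median differences moved as well. At aged 10 ppm the median of the members was 0.36 with normexp, 0.54 under quantile normalization and 0.60 with the authors' values. In the mean of both doses it was 0.50 under quantile normalization and 0.61 with the authors' values, against -0.14. The step from 10 to 20 ppm was -0.040 with normexp, 0.034 under quantile normalization and 0.023 with the authors' values. Leaving out single arrays gave medians from -0.51 to 0.05 at aged 10 ppm, from -0.14 to 0.46 at 20 ppm, from -0.27 to 0.23 in the mean and from 0.26 to 0.54 in the step. The fresh medians ranged from 0.56 to 1.15 at 5 ppm and from 0.57 to 1.17 at 10 ppm, and the pure ones from -0.28 to 0.39 at 1.25 ppm and from -0.34 to 0.29 at 2.5 ppm. Of the 60 members 34 were chosen again with a pure window of 0.2, 26 with a window of 0.5, 27 with subtracted background plus 50, 7 without both salt arrays numbered 9, 0 with normexp and 10 to 54 with 1 array left out. With normexp the fresh medians were 0.11 at 5 ppm and 0.37 at 10 ppm. On 9 arrays normexp returned over 1.5 times the background-subtracted signal at the median probe, so its values compare arrays that it changed unequally. The highest ratio, 9.98, was that of fresh salt replicate 9, which enters the fresh medians, while pure salt replicate 9 had 0.88. On fresh 10 ppm replicate 1 the median was -0.22 under quantile normalization, -0.042 with the authors' values, -0.045 with normexp, 0.80 with subtracted background plus 50 and 1.05 to 1.65 with 1 fresh salt array left out.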
